A study of Mus musculus with 4 samples.

Results

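Toll-like receptors are membrane proteins that bind molecules of microbes and start an inflammatory response. In all, 10 genes of this system were followed here, namely the receptors Tlr1 to Tlr7, the accessory proteins Tril and Cd14, and the adaptor Myd88. The array carried 13 probes for these 10 genes, found by their gene name in the scanner files, among 55681 probes and 24054 named genes in all. They were chosen by measured values of the same arrays, since Tril had been seen in the Cy5 channel alone, so their ratios are a description with no test.

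The RNA came from mice of 2 weeks of age whose EGFP transgene is driven by 2.3 kb of a type I collagen promoter. Green cells were sorted after enzyme digestion of dental pulp (labelled primary odontoblast, Cy5, strain C57BL/6) and of the calvaria, the roof of the skull (labelled calvarial osteoblast, Cy3, no strain given). All groups carried the transgene, and the sorted cells were those in which this promoter fragment was active. Donors were matched per the series design, each of 4 arrays paired an RNA of each kind, and 250 ng of each cDNA was labelled. No dyes were swapped, so dye and cell type share a single ratio. All arrays lay on 1 slide, and the position of an array on it goes with its pair of RNAs. The number of animals behind each array is not given, so the p-values below measure only the spread between these 4 arrays.

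Ratios are given as log2 of Cy5 over Cy3, so that values above 0 stand for a stronger Cy5 signal. The direction follows the dye labels, but markers of both cell types ran against them. Dspp, the gene of the main non-collagenous dentin protein, averaged -1.95 ± 0.32 on the log2 scale (SE, n = 4; limma, Benjamini-Hochberg adjusted p = 0.0605). Nes, the gene of an intermediate filament of odontoblasts, had a ratio of -2.00 (limma adjusted p = 0.0692). Ifitm5, a membrane protein of mineralising osteoblasts, had a ratio of 5.05 (limma adjusted p = 0.0170), and Col1a2, a chain of type I collagen, had a ratio of 2.79 (limma adjusted p = 0.0234). The Ifitm5 call was lost without array 1, 2 or 4, with adjusted p of 0.0567, 0.0776 and 0.10. Without array 1 or 2, 0 of all genes were called in either direction. Dspp was past the threshold with scale normalization between arrays, at an adjusted p of 0.0441. Channels are therefore named by dye. Exchanged labels would leave each Cy5 over Cy3 ratio as it is and turn its direction between the cell types.

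Macrophages express most Toll-like receptors, so their markers were read beside the receptors. Of 19 macrophage and leukocyte markers 18 were measured, and 4 were called by limma as higher in Cy5 and 0 as higher in Cy3, against 1.26% and 0.849% of all genes. Of the 18, 14 had an unadjusted limma p under 0.05, against 21.2% of all genes. The mean ratio was above 0 for 15 of them and below 0 for 3. Their summed intensity above background was 206334 to 364767 in Cy5 and 45238 to 60185 in Cy3. These raw sums are not on one scale for both dyes, and Itgam alone had an intensity of 137493 to 149256 in Cy5 and 27924 to 40129 in Cy3. The neutrophil markers likewise summed to 101282 to 124675 in Cy5 and 34705 to 49353 in Cy3, with median ratios below 0 on all 4 arrays. The median log2 ratio was 1.44 over the list, and 1.19, 0.86, 1.95 and 1.07 on arrays 1 to 4. Lyz2, the lysozyme of myeloid cells, had a mean ratio of 4.42 (limma adjusted p = 0.0281). That call was lost when any single array was left out, with adjusted p between 0.0555 and 0.129. Without array 1 or 2 this held for every gene, since limma called 0 in either direction. The signal of Ptprc, the pan-leukocyte surface protein CD45, had a ratio of 0.94 (limma adjusted p = 0.102), and Adgre1, the macrophage antigen F4/80, had 1.76 (limma adjusted p = 0.130). Csf1r, the receptor for the macrophage growth factor, had -0.39, Itgam had 0.17 and Cd68 had -0.10, with limma adjusted p of 0.285, 0.684 and 0.841. These are values of the brightest probe, and the probes of each gene disagreed. Other kept probes reached -2.84 for Csf1r, 1.42 for Itgam and -1.20 for Cd68. Of the defining markers, Spi1 failed to reach well above background in Cy3 on all 4 arrays and C1qc did not pass the filter on dim probes, while 15 of 18 markers in Cy5 and 13 of 18 in Cy3 were well above background on all arrays. The part of these cells in the values below was not tested. In such bulk RNA, fewer cells of a type and less RNA per cell cannot be told apart.

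At the cell surface, TLR4 binds bacterial lipopolysaccharide with the help of CD14 and of MD-2 (Ly96), and TLR2 pairs with TLR1 or TLR6 to bind bacterial lipopeptides. TLR5 binds flagellin, whereas TLR3 and TLR7 read RNA inside endosomes. TRIL, a leucine-rich repeat protein, takes part in TLR4 and TLR3 signalling. MYD88 carries the signal of all these receptors except TLR3 towards NF-kappaB. In human teeth, odontoblasts are known to carry TLR2 and TLR4 at the edge of the dental pulp.

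The probe decides which transcript end is read, so 30-base stretches of the probes that carry the main values are shown, each the last 30 of 60 bases. Capitals mark the polyadenylation signal AATAAA, searched in the probe's own strand, which 5602 of 55681 probes (10.1%) and 3 of the 13 probes of these genes hold. The probe coordinates are those in the files, on mouse build mm9. The Tril probe lies at chr6:53766292-53766351, that of Tlr6 at chr5:65344365-65344424, that of Tlr1 at chr5:65316115-65316174 and that of Tlr2 at chr3:83640344-83640403, all on the minus strand. No annotation of that build was used here, so exons and untranslated regions are not stated.
Tril: gtttttagctatttgggatacttttctccc
Tlr6: atgtgaaaacttgaaacttgggtttctaac
Tlr1: agcatccattaatgttaagctggttaacca
Tlr2: gggtaaatctgagaactgcAATAAAgtcct
Tlr1 and Tlr6 are close relatives and neighbours, with probes 28.2 kb apart, and the longest run of bases shared by their probes is 5.

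Promoters were read from RefSeq (GRCm38.p6). Of the 10 genes, 7 were searched, with 9 promoters, and Tlr4, Tlr7 and Cd14 were not analysed here. Those of Tril and Tlr6, whose mean ratios were the highest, and of Tlr2, whose ratio varied most between arrays under the processing used here, are shown. The motifs searched on both strands were the NF-kappaB consensus, the interferon-response letters (GAAA, any 2 bases, GAAA) and the TATA-box letters TATAAA. Over 32851 mouse promoters of 250 bases, 7.3% held the first, 3.0% the second and 12.4% the third. Capitals mark matches, which overlap in both cases below. The Tril promoter is chr6:53820826-53821075, the Tlr2 promoter is chr3:83841609-83841858 and the Tlr6 promoter of one of its listed starts is chr5:64959167-64959416, all minus strand and printed in gene orientation.
Tril: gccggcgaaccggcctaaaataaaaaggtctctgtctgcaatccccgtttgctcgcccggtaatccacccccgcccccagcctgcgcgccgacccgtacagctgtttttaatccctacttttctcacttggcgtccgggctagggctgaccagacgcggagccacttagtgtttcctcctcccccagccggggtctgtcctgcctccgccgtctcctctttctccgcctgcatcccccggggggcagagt
Tlr2: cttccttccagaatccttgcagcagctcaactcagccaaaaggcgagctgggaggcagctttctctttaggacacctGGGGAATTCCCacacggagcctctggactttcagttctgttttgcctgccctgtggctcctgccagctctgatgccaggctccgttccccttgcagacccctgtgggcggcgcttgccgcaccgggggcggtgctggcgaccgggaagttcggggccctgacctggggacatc
Tlr6: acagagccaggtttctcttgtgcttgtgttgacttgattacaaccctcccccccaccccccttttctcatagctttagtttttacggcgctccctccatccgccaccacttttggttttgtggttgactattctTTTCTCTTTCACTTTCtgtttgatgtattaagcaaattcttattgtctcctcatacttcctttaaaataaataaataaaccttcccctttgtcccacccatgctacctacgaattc
Tlr2 held 2 overlapping NF-kappaB matches and Tlr6 held 2 overlapping interferon-response matches. Across the 7 genes, 2 held an NF-kappaB match (Tlr2 and Tlr3), 2 an interferon-response match (Tlr6 and Myd88) and 2 a TATAAA match (Myd88 and the other listed start of Tlr6). The letters of these motifs were absent from the Tril window. A match describes letters only.

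Among the co-receptors, Tril was the gene seen in Cy5 alone. Its spot intensity on arrays 1 to 4 was 869, 606, 584 and 673 in Cy5 over local backgrounds of 65 to 73.5, against 36.0, 40.9, 42.8 and 50.8 in Cy3 over backgrounds of 16 to 18. It was well above background in Cy5 on all 4 arrays and in Cy3 on none, a pattern that 0.467% of all genes shared and the reverse of which 0.0457% showed. A Tlr7 probe that was not the brightest of its gene had the same flags with a mean ratio of 0.08. The ratio was above 0 on every array, with values of 3.0, 2.33, 1.88 and 2.25 and a mean of 2.37 ± 0.46 (SD, n = 4). Because Cy3 gives only a bound, the fold of Cy5 over Cy3 was set against a floor, and this bound was 4.82-fold. The bound sets the mean of Cy5 against, per array, the higher of the Cy3 value and the dimmest signal that counted as well above background. That floor of 6.46 to 6.71 (log2) lay around the Cy3 mean of 6.57, so the bound was close to the 5.16-fold of the mean ratio. With the 5th percentile of the signals well above background as floor, the bound was 3.78-fold. The size depended on the background step, since the scanner software's own ratio averaged 5.20 and an offset of 0 gave 3.83.

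Cd14, the lipopolysaccharide-binding surface protein of myeloid cells, was bright in both channels. Its ratios on arrays 1 to 4 were -0.45, 0.70, 0.29 and -0.75, with intensities of 1407, 3859, 4873 and 1291 in Cy5 and 1113, 1195, 1613 and 969 in Cy3. The mean was -0.05 ± 0.67 (SD, n = 4), the ratio took both signs between arrays, and the mean ran from -0.30 to 0.18 when 1 array was left out. Tlr4, the receptor that CD14 serves, had ratios of 0.68, 0.18, -2.23 and -0.27 by its main probe, with a mean of -0.41 ± 1.27 (SD, n = 4). Array 3 set the low value, and without it the mean was 0.20. There the Cy3 intensity was 796, against 132 to 139 on the other arrays, while Cy5 was 245 to 437 on all of them. A second Tlr4 probe, 86.6 kb away and designed on another transcript, had ratios of -1.0, 0.09, -2.16 and -0.74. Both probes were lowest on array 3. There the second probe had a Cy5 intensity of 110 over a background of 63, which was not well above background. Its Cy3 intensity was 210, against 108 to 153 on the other arrays, a smaller rise than that of the main probe. Other genes read beside Tlr4 after their values were seen also had high Cy3 signal on array 3. Pecam1, an endothelial surface protein, had a Cy3 intensity of 2718 there, against 66.2 to 196 elsewhere. Cd79b, a B cell receptor chain, had 2171, against 74.4 to 137. Cd79a, the other B cell marker measured, had 1707 there, against 156 to 602. The rest of the lists they come from did not share this. On array 3 the endothelial markers had a median ratio of 0.09 over 6 genes, with 0.72 for Tek and 0.65 for Emcn. The B and T cell markers had a median of 0.28 with 4 of 6 above 0, all of them T cell genes. The part of such cells in the Tlr4 value was not tested.

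**Figure D1:**
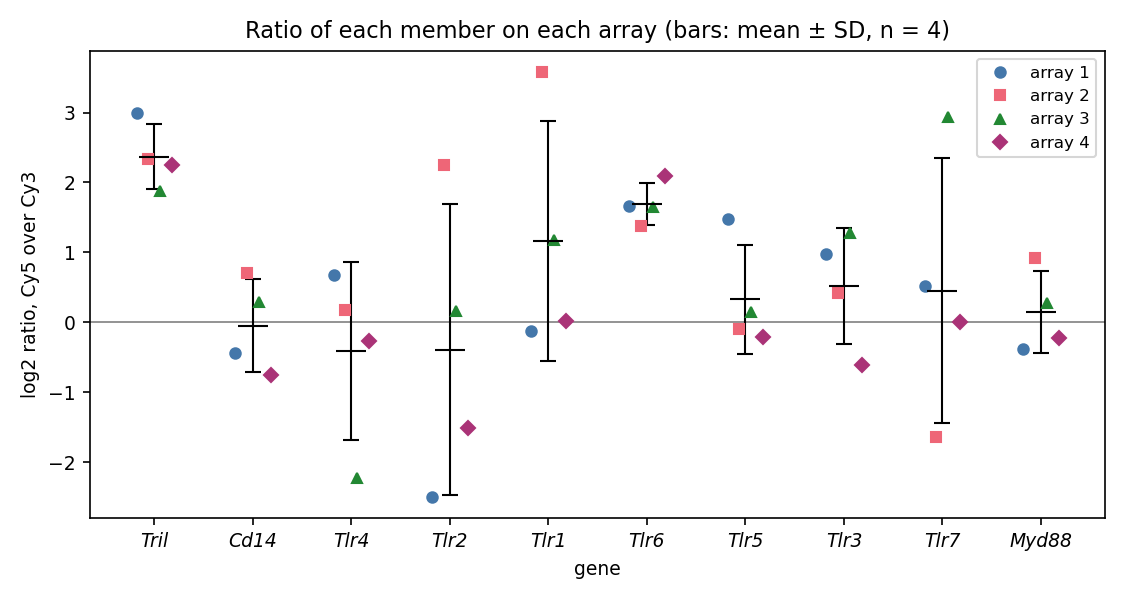
Log2 ratio of Cy5 over Cy3 (vertical axis) of each gene on arrays 1 to 4 (points), with bars for the mean ± SD over 4 arrays. Tril (mean 2.37) and Tlr6 (mean 1.70) lie above 0 on every array, while Tlr2 runs from -2.49 to 2.26.

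Of the lipopeptide receptors, Tlr6 was above 0 on every array, while Tlr1 and Tlr2 took both signs. Tlr6 had Cy5 intensities of 352, 435, 771 and 760 on arrays 1 to 4, against 42.2, 68.5, 77.7 and 66.5 in Cy3. The ratios were 1.66, 1.37, 1.65 and 2.10, with a mean of 1.70 ± 0.30 (SD, n = 4). This was the lowest spread of the 10 genes with the processing used here. Cy3 was well above background on 3 of 4 arrays. The software's own ratio averaged 2.94 with an SD of 0.71, above the 0.58 of Myd88 and the 0.66 of Cd14.

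Tlr1, the other partner of TLR2 and the neighbour of Tlr6, had ratios of -0.12, 3.58, 1.17 and 0.02. Its Cy5 intensity was 125, 1615, 297 and 105, against 64.2, 44.2, 41.2 and 51.4 in Cy3, so the high values came from the Cy5 channel on arrays 2 and 3. Cy3 was well above background on array 1 only. The mean of 1.16 ± 1.71 (SD, n = 4) was 0.36 without array 2. With the software's ratio it was 2.38.

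Tlr2 had the widest spread between arrays of the 10 genes with the processing used here. Its Cy5 intensity was 2481, 27210, 30667 and 805 on arrays 1 to 4, against 7980, 2600, 8831 and 1033 in Cy3, averaged over 10 spots. The ratios of -2.49, 2.26, 0.16 and -1.51 took both signs, with a mean of -0.40 ± 2.08 (SD, n = 4), and without array 1 the mean was 0.30. On the software's log2 ratio the 10 spots of an array had SDs of 0.035 to 0.097, around array means of -2.55, 2.24, 0.17 and -1.64. In SD between arrays Tlr2 lay at the 98.4th percentile of all genes, Tlr7 at 97.5 and Tlr1 at 96, while Tlr6 was at 21.7 and Tril at 42.6. The order depended on the processing. With the software's ratio the SDs were 3.11 for Tlr1, 2.55 for Tlr7, 2.12 for Tlr2, 0.89 for Tril and 0.71 for Tlr6.

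**Figure D2:**
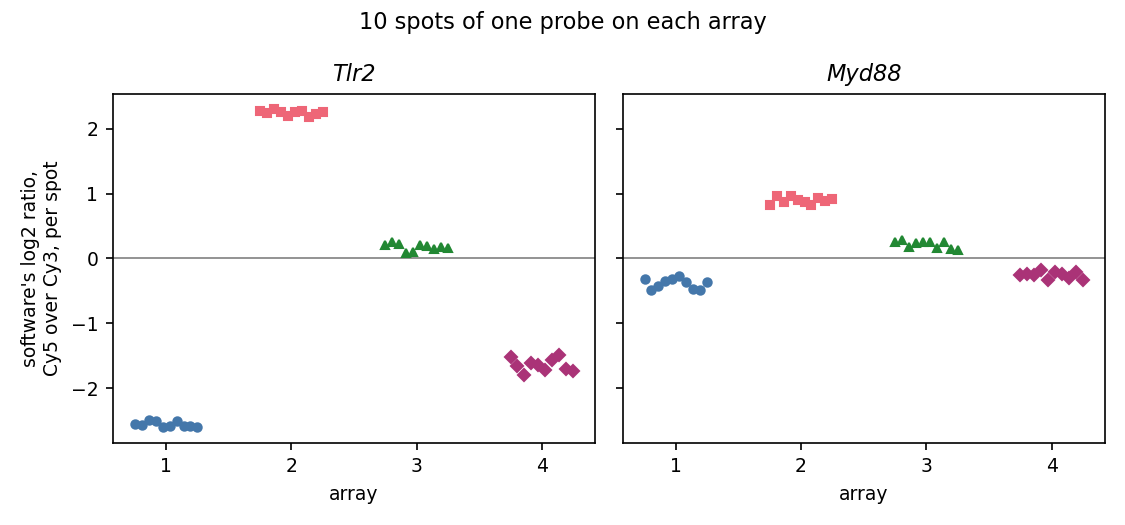
Software's log2 ratio of Cy5 over Cy3 (vertical axis) of the 10 spots of the Tlr2 and the Myd88 probe on each of 4 arrays. Spots of an array lie together (SD at most 0.097 for Tlr2), while arrays lie apart.

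Tlr5, the flagellin receptor, had ratios of 1.47, -0.10, 0.15 and -0.21 and a mean of 0.33 ± 0.78 (SD, n = 4). Array 1 alone was high, there Cy3 was not well above background, and without it the mean was -0.05. In the endosome, Tlr3 had ratios of 0.97, 0.42, 1.27 and -0.61 with a mean of 0.52 ± 0.83 (SD, n = 4), and its Cy3 signal was well above background on 2 arrays. The Tlr3 mean was 0.26 without array 3, 0.89 without array 4 and 1.01 with the software's ratio. Tlr7 had ratios of 0.52, -1.64, 2.93 and 0.00 by the brightest of its 3 probes, with a mean of 0.45 ± 1.89 (SD, n = 4), and -0.38 without array 3. Its other probes, up to 4.35 kb away and designed on another transcript, averaged 0.55 ± 0.57 and 0.08 ± 0.17 (SD, n = 4). They were dim in Cy3, well above background there on 1 and 0 of 4 arrays. On array 2 the bright probe was at -1.64 and the others were at 0.59 and 0.33, so the probes of Tlr7 disagreed in sign there.

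**Figure D3:**
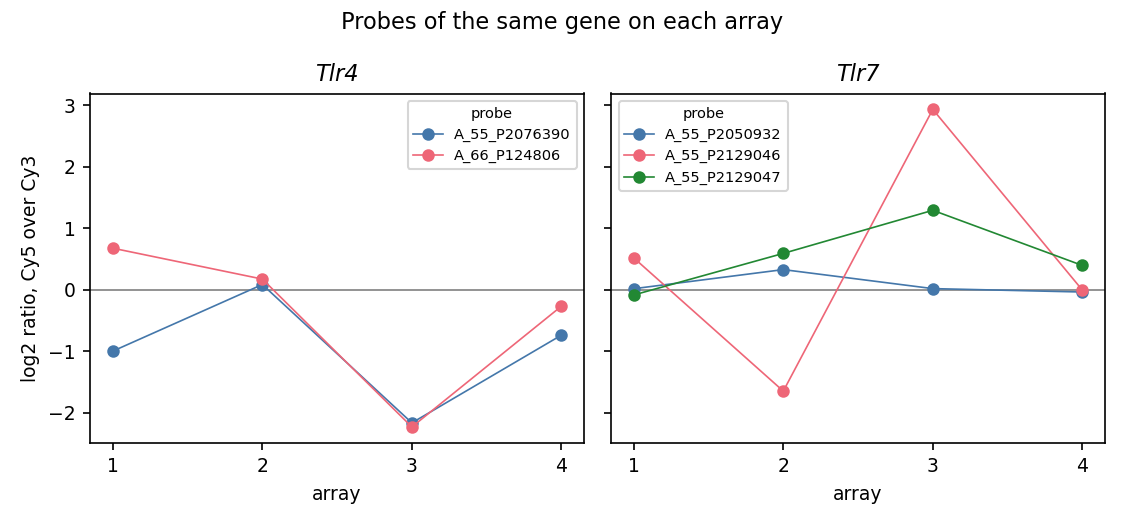
Log2 ratio of Cy5 over Cy3 (vertical axis) on arrays 1 to 4 for each probe of Tlr4 (left) and Tlr7 (right). The Tlr4 probes are both near -2.2 on array 3, whereas the Tlr7 probes have opposite signs on array 2.

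Myd88, the adaptor shared by these receptors except TLR3, had ratios of -0.38, 0.91, 0.28 and -0.22 over 10 spots, with a mean of 0.15 ± 0.58 (SD, n = 4), and -0.11 without array 2. Its spot SDs were 0.050 to 0.077 on each array. Myd88, Cd14 and Tlr2 each had their highest ratio on array 2, their next highest on array 3, and negative ratios on arrays 1 and 4.

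**Figure D4:**
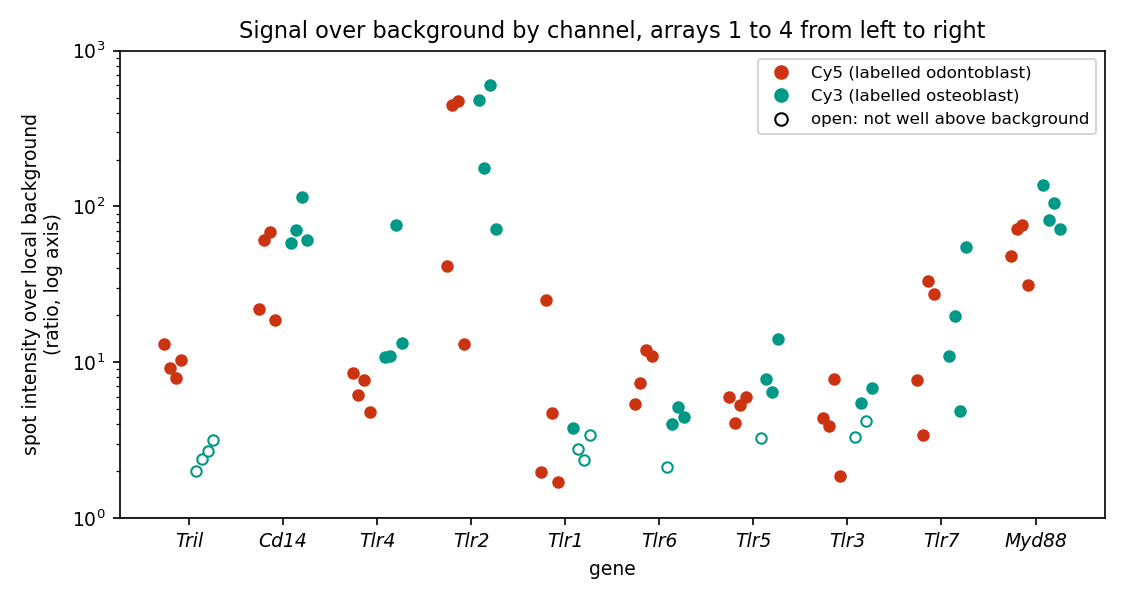
Spot intensity over local background (ratio, log axis) of the 10 genes in Cy5 and Cy3, arrays 1 to 4 from left to right; open points are not well above background. Tril is open in Cy3 on all 4 arrays.

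Of the 10 genes, 2 passed the threshold of the fit across all features (Tril and Tlr6, both higher in Cy5), where 2.11% of all genes did in either direction. Since the contrast chose the genes, nothing is read from that count. Ratios were above 0 on all 4 arrays for the same 2, against 16.1% of all genes, and below 0 on all for none, against 15.4%. The other 8 took both signs. By their brightest probe, 5 genes (Cd14, Myd88, Tlr2, Tlr4 and Tlr7) were detected well above background in Cy5 and in Cy3 on every array. The other probes of Tlr7 were well above background in Cy3 on 1 and 0 arrays, and that of Tlr4 in Cy5 on 3. Over all genes, 248 were called as higher in Cy5 and 167 as higher in Cy3, a split that became 1171 and 237 with median centring in place of loess. Leaving out array 1, 2 or 4 left 0 of the 10 past the threshold and leaving out array 3 left 1. Of all genes, 0 were called in either direction without array 1 or without array 2. Without array 4, 16 were called as higher in Cy5 and 14 as higher in Cy3, and without array 3, 98 and 75. The lost calls are therefore not particular to the 10 genes. None of the 10 was past it when the filter required every array to show both channels well above background, which removes Tril and Tlr6.

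By root mean square difference over the 4 arrays, among 19676 genes, genes near to Tril were Clec11a (a secreted growth factor of bone marrow and bone) at 0.175, Hpgds (a prostaglandin D synthase) at 0.279, Olfml3 at 0.283 and Plcb4 (a phospholipase C) at 0.294. Clec11a had ratios of 2.73, 2.17, 1.97 and 2.39 on arrays 1 to 4. The genes nearest to Tlr7, which had the largest absolute mean ratio among those 5 genes, were Usp37 at 0.127, Apc at 0.184, Cda at 0.287, Tubgcp2 at 0.289 and Katnal1 at 0.314.

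The wider pathway was read from 78 listed genes, of which 74 were measured. Limma called 1 of the 74 as higher in Cy5 and 0 as higher in Cy3, against 1.26% and 0.849% of all genes, and 8 had an unadjusted p under 0.05, which 4182 of all 19680 genes (21.2%) had. The median ratio was -0.05, beside 0.01 for all genes. The called gene was Irf7, a transcription factor that drives interferon genes downstream of TLR7 and TLR9. Irf7 had ratios of 4.61, 2.06, 3.27 and 3.38, with a mean of 3.33 ± 0.42 (SE, n = 4; limma adjusted p = 0.0342). The adjusted p was 0.0571 with the software's processed signals, 0.0526 without the filter, and between 0.0700 and 0.159 when any single array was left out. With array 1 or 2 left out, 0 of all genes were called in either direction.

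The co-receptors and partners of the surface receptors (6 genes) had a median of 0.32, with 0 called. Ly96, the MD-2 protein that holds lipopolysaccharide for TLR4, had a ratio of -0.05 (limma adjusted p = 0.929), and Hmgb1, a nuclear protein that also acts as a danger signal, had -0.06 (limma adjusted p = 0.873). Lbp, which carries lipopolysaccharide to CD14, had ratios of 0.99, 5.01, 2.51 and 3.30, a mean of 2.95 that did not pass the test (limma adjusted p = 0.109), while its other probe averaged 0.64. The other Toll-like receptors had a median of -0.12 over 4 of 5 measured genes, with 0.09 for Tlr9, a DNA sensor, and -0.38 for Tlr13, a sensor of bacterial ribosomal RNA in mice.

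Proteins that fold and carry the receptors (8 genes, median -0.16) had 0 calls. Hsp90b1, the chaperone of Toll-like receptors, had ratios of 2.06, 1.34, -0.33 and -0.29 (limma adjusted p = 0.467), and Lrrc59 had a mean of -0.18. Of the 16 adaptors and proximal kinases, 13 had a mean below 0, the list's median was -0.16 and 0 were called. Only 2 of the 16 had an unadjusted limma p under 0.05, against 21.2% of all genes. Irak2, a kinase of the receptor complex, had -0.07 and Tab2, an adaptor of the kinase TAK1, had -0.52, with limma adjusted p of 0.871 and 0.270. The other kept probe of Irak2 averaged 1.56. The NF-kappaB and IRF factors (11 genes, median -0.24) held Irf7. Nfkb1 and Nfkb2, which encode NF-kappaB subunits, had 0.03 and -0.33, and another Nfkb1 probe had -0.40. Among 13 inhibitors the median was -0.21 and 0 were called. Nfkbia, the inhibitor that NF-kappaB itself induces, had ratios of -3.09, 0.97, 1.62 and -2.28, and Nfkbib had a mean of -0.68. Tollip, an inhibitor of receptor signalling, was below 0 on all 4 arrays with a mean of -0.94 by its brightest probe (limma adjusted p = 0.0962). The Tollip mean was -0.44 with median centring and -0.43 over its 3 kept probes, of which the highest was at -0.13.

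The cytokine and chemokine targets had the largest median SD between arrays of the 7 pathway lists. Of 19 listed genes 16 were measured and 0 were called, with a median of 0.98. On arrays 1 to 4 the list's median was -0.71, 3.08, 3.48 and -0.28, and 3, 16, 14 and 4 of the 16 genes were above 0, whereas 49.8% to 51.8% of all genes were above 0 on the same arrays. The median SD between arrays was 2.43 for the list and 0.54 for all genes. Cxcl1, a neutrophil chemokine, had ratios of -4.90, 3.72, 1.48 and -1.54, and Ptgs2, the inducible cyclooxygenase, had -2.23, 1.36, 0.46 and -4.00. Tnf, an inflammatory cytokine, had -3.88, 3.19, 4.03 and -2.11, and Icam1, an adhesion molecule, had -2.14, 4.74, 4.52 and 0.59. The inhibitors had medians of -0.95, 0.87, 0.90 and -0.75 on arrays 1 to 4, and the adaptors -0.49, -0.19, -0.22 and -0.12. The arrays on which Tlr2, Cd14 and Myd88 were above 0 were also those with high target medians; the genes were read in the same RNAs, the values stand side by side and no relation was tested.

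**Figure D5:**
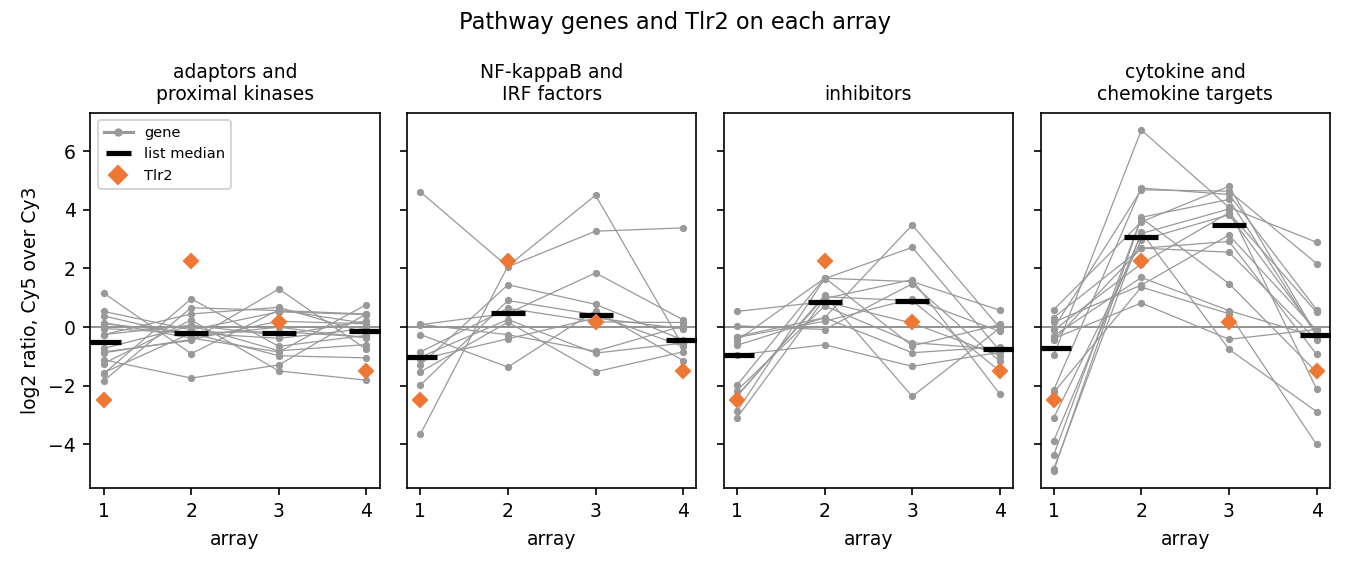
Log2 ratio of Cy5 over Cy3 (vertical axis) on arrays 1 to 4 for genes of 4 pathway lists (grey lines), with the list median (black bars) and Tlr2 (orange). The cytokine and chemokine targets have medians of 3.08 and 3.48 on arrays 2 and 3, and -0.71 and -0.28 on arrays 1 and 4.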

How the data were processed

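RNA labelled odontoblast (Cy5) and osteoblast (Cy3) was compared on 4 two-colour arrays. Per the file headers, Agilent Feature Extraction 10.7.3.1 wrote the deposited files, which give the mean spot intensity and local background intensity of 62976 spots, without normalization, and the software's flags. They also hold the software's processed intensity and its log10 ratio of Cy5 over Cy3. The deposited value table holds log10 values, of which about 99.3% on each array lay within 1e-04 (log2) of the software's ratio, with a median of 0 in each column. No further step by the authors is recorded in the headers or labels.

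Background was corrected with normexp (offset 50) and arrays were normalized by loess (limma 3.58.1, R 4.3.3). All 3671 control spots were removed, 949 outlier spots were set to missing and 0 were saturated. Of 55681 probes, 44233 were kept, each well above background in Cy5 on 3 or more of 4 arrays, or likewise in Cy3, among them all 13 of the genes described. Per channel, 67.8% to 85.2% of probes were well above background, and the median spot was 7.10 to 8.21 times background in Cy5 and 10.9 to 16.0 times in Cy3. Pairs of arrays correlated at r between 0.302 and 0.490 over 37172 features. Names came from RefSeq (27235 probes by accession, 3581 current symbols, 564 updated, 1817 older names kept, 22484 without a symbol). A gene is represented by its brightest probe (19680 genes). Each feature's mean log2 ratio was tested against 0 with lmFit and eBayes (two-sided), and p was adjusted by Benjamini-Hochberg across the 37172 features, threshold 0.05. The fit was tested on simulated data.

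The genes and lists were chosen with earlier results of these data known. The naming rule took all 10 genes, up to 4 called and up to 2 bright uncalled genes per list, the 5 genes nearest to Tril and to Tlr7, and named markers; 1 of these genes is not reported here. Lbp, Tollip, Tnf, Icam1, Pecam1, Tek, Emcn, Cd79a, Cd79b, Spi1 and C1qc were added to the names once their values had been seen. The alternatives tried are in the closing section.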

Additional observations from a re-analysis of the deposited data

Results flagged for a closer look

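Of 48 ratio sets tested with 4 arrays each, 1 had an array far from the others, and chance alone flags about 1 in 20. The Tlr7 probe A_55_P2050932 had a log2 ratio of 0.33 on array 2, and the other arrays lay between -0.04 and 0.02. The gap was 0.848 of the whole range, above the critical value of 0.829. In Cy3 this probe failed to reach well above background on all 4 arrays.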

How the results depend on the processing

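Over all genes, 248 were called as higher in Cy5 and 167 as higher in Cy3. With median centring in place of loess these were 1171 and 237, and the median of all genes was 0.20. With the software's processed signals they were 163 and 103, as with the deposited value table. Leaving out an array gave 0 to 98 in Cy5 and 0 to 75 in Cy3, with 3034 to 4165 genes at an unadjusted p under 0.05. The single pathway call in Cy5 became 0 with processed signals, with the deposited table, without the filter and without each array in turn. The lower bound of Tril was 10.9-fold with processed signals, against 4.82, and 3.78 to 5.27 under the other alternatives. No result reversed, but the uncalled means of Cd14 (in 3 of 13 settings), Myd88, Tlr2, Tlr4, Tlr5 and Tlr7 (in 1 each) changed sign. The mean of Tril ranged from 2.16 to 5.20, and that of Tlr6 from 1.56 to 2.94. The cause of these differences was not tested. Each array pairs both RNAs, so the test of the array ratios against 0 is already a paired one. With 1 group, no further pairing was possible. Signal near background limits Tril, Tlr1, Tlr3, Tlr5, Tlr6 and the dimmer probes of Tlr7 in Cy3.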

Other observations

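Markers of other cells were read on the same arrays. Of 8 neutrophil markers, 6 B and T cell markers and 6 endothelial markers measured, limma called 0 in either direction, against 2.11% of all genes, with 2, 1 and 0 at an unadjusted p under 0.05, against 21.2%. Cd79a, a B cell receptor chain named after its values were seen, had log2 ratios of -1.37, -3.40, -4.80 and -0.71 on arrays 1 to 4, a mean of -2.57 that did not pass the test (limma adjusted p = 0.161), while its other probe averaged -1.36.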
